A study of Mus musculus with 8 samples.

Results

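Among the probes of a mouse long noncoding RNA array, 1217 carry a name beginning with humanlincRNA, and these were followed in skeletal muscle at 2 postnatal ages. They were chosen by that name alone, among the non-control probes, and make up 1217 of 59709 probes. The names give each probe a numbered region and a strand, so that the set covers 609 regions with 608 plus-strand and 609 minus-strand probes, and 608 regions have a probe on both strands. Each probe has 1 spot on the array and none of these spots was saturated. The muscle came from ICR mice, an outbred laboratory stock, at postnatal day 0 (D0, newborn) and postnatal day 65 (D65, young adult), with 4 arrays per age. No treatment or genetic change is named for either age. The study looked for long noncoding RNAs that differ between these ages. The labels do not say which muscle was taken, whether animals were pooled or whether replicates are different animals. The p-values thus cover only the variation among these arrays, part of which may be technical. In RNA from whole muscle, fewer cells of a type and less RNA per cell cannot be told apart.

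Long intergenic noncoding RNAs (lincRNAs) are transcripts made between protein-coding genes, usually capped, spliced and polyadenylated like messenger RNA but with no known protein product. They tend to be less abundant and more restricted to particular tissues than messenger RNAs, and their sequences change faster between species, so that many human lincRNAs have only short stretches recognisable in the mouse. Some act in the nucleus on chromatin or on neighbouring genes and some in the cytoplasm, and several are known to take part in the differentiation of muscle cells. By their names, the probes of a region read its 2 strands separately. The sequences, genome positions and gene names behind the humanlincRNA names were not analysed here, so that each probe is given by its array name, with + or - for its strand.

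The 8 arrays lay on 1 slide and were read in 1 scan, with D0 in the first row of the slide and D65 in the second, so that slide row and age cannot be told apart. Levels are given as log2 of the background-subtracted signal minus the 75th percentile of the array over all probes, so a level of 0 is the brightness of that percentile. That percentile was a signal of 136 to 309 on the D0 arrays and 121 to 151 on the D65 arrays, and D0 replicate 4 had the lowest of its age. The spots of the negative control probes, which have no target, had a median level of -6.00 ± 0.43 (SD, n = 4) at D0 and -5.21 ± 0.25 (SD, n = 4) at D65, a difference of 0.79 in the same direction as many of the differences given here. The part of this shift in the results was not tested beyond the alternatives given beside them. None of 35 marker genes of muscle and other tissues had a probe named by symbol or RefSeq accession, so the tissue was not checked against its markers.

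At D0, 472, 497, 522 and 500 of the humanlincRNA probes passed as well above background on replicates 1 to 4, a flag that the scanner software sets per spot. At D65 the numbers were 371, 386, 472 and 457. The share was 40.9% ± 1.68 (SD, n = 4) at D0 and 34.6% ± 4.14 (SD, n = 4) at D65, and the ages met where D65 replicate 3 and D0 replicate 1 both had 472. Over all probes of the array the share was also lower at D65, at 52.3% to 60.7% against 63.1% to 68.4% at D0. The spots of the negative control probes carried the flag at 14.9% to 17.4% on the D0 arrays and at 8.19% to 13.4% on the D65 arrays. The flag was thus also set on some spots without a target, and more often at D0.

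**Figure D1:**
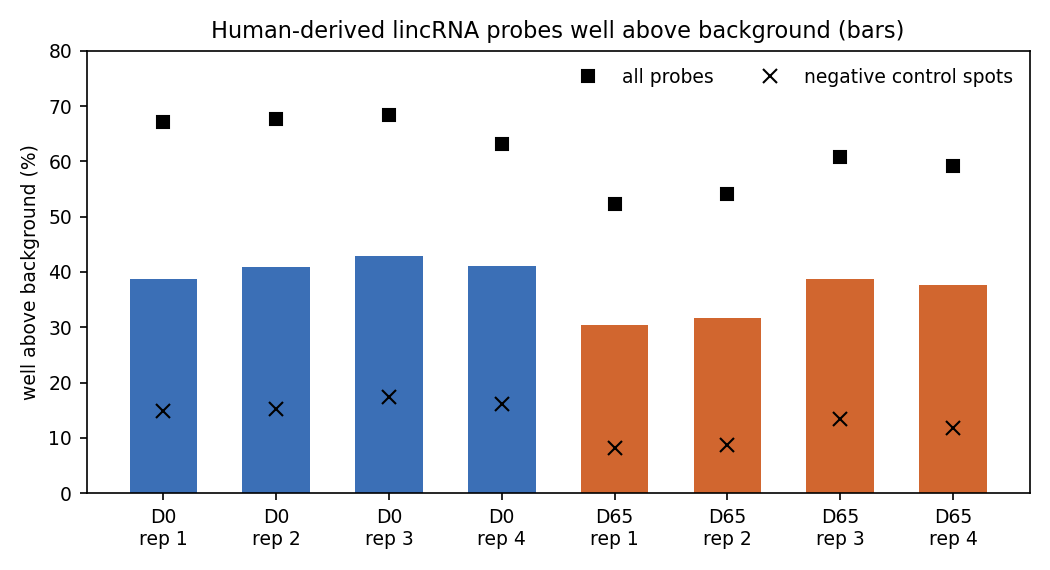
Percent of probes well above background on each array (vertical axis) for the 4 D0 and the 4 D65 arrays, for the humanlincRNA probes, all probes and the negative control spots. The humanlincRNA probes lie between the other groups of spots on every array, from 38.8% to 42.9% at D0 and from 30.5% to 38.8% at D65.

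Across arrays, 391 humanlincRNA probes were well above background on all 4 D0 arrays and 341 on all 4 D65 arrays. All 8 arrays were passed by 322 probes. A probe was kept for testing where it passed on all 4 arrays of at least 1 age. This left 410 of 1217 probes (33.7%), of which 69 passed through D0 alone and 19 through D65 alone. Of all probes on the array 58.5% were kept. The share was close to that of the humanlincRNA probes for probes named as mouse lincRNAs (34.9%) and as ultraconserved regions (32.3%), and higher for probes named as lincRNA exons (51.3%). Of the 807 humanlincRNA probes not kept, 242 were above background on 1 to 7 arrays and 565 (46.4% of the set) on none.

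The kept probes spanned a wide range of levels. The 4 with the highest mean level were humanlincRNA2330+, humanlincRNA2296+, humanlincRNA2438+ and humanlincRNA0065-. humanlincRNA2330+ stood at 5.67, 5.83, 4.18 and 4.64 on the D0 arrays and at 5.87, 5.29, 4.53 and 4.67 on the D65 arrays. The ages overlapped, and the difference, always given as D65 minus D0 on the log2 scale, was 0.01 with a 95% interval of -0.94 to 0.96. humanlincRNA2296+ gave a difference of -0.06 (interval -0.93 to 0.80) and humanlincRNA0065- of -0.09 (interval -0.71 to 0.54), again with overlapping ages. Only humanlincRNA2438+ of these 4 passed the test between ages, as described with the probes that were lower at D65.

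A few probes were measured with little difference at either age. The 3 whose interval lay nearest to 0 were humanlincRNA0059+, with a difference of 0.05 (95% interval -0.37 to 0.46), humanlincRNA2257-, with 0.03 (interval -0.41 to 0.48), and humanlincRNA2113+, with -0.01 (interval -0.47 to 0.44). humanlincRNA0059+ lay between -1.32 and -1.10 on the D0 arrays and between -1.32 and -0.99 on the D65 arrays.

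Between the ages, 53 of the 410 kept humanlincRNA probes were higher at D65 and 4 were lower (limma, Benjamini-Hochberg adjustment over all 34948 kept probes, adjusted p below 0.05, with a minimum of 1 for the size of the log2 difference). That is 12.9% higher and 0.976% lower, where 9.57% of all kept probes were called higher and 12.6% lower. The share called higher was thus near that of the array, and the share called lower was below it. A further 28 probes above and 2 below passed the adjusted p without reaching the minimum difference, as 5.09% and 3.26% of all kept probes did, so that 81 were higher by the adjusted p alone (array 14.7%). The ages did not overlap, with every D65 array above every D0 array, for 77 kept humanlincRNA probes (18.8%), against 15.1% of all kept probes, and with every D65 array below for 9 (2.20%), against 16.4%. Of the 53 probes called higher, 41 had ages that did not overlap, and so had all 4 called lower.

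The median difference of the kept humanlincRNA probes was 0.32, with quartiles of -0.02 and 0.71, where the median over all kept probes was 0.06. A positive difference was found for 302 of 410 (73.7%), against 53.5% of all kept probes. The changes were mostly small: the median fold of the 53 probes called higher was 2.53, 41 of them differed by less than 1.5 on the log2 scale, and 4 by at least 2. Of the 53 probes, 45 were above background on all 8 arrays and 8 had passed through D65 alone, a filter that itself favours a higher level at D65. None of the 69 probes kept through D0 alone was called in either direction. The same split over all kept probes is not given here, so it is not read as particular to the humanlincRNA probes.

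**Figure D2:**
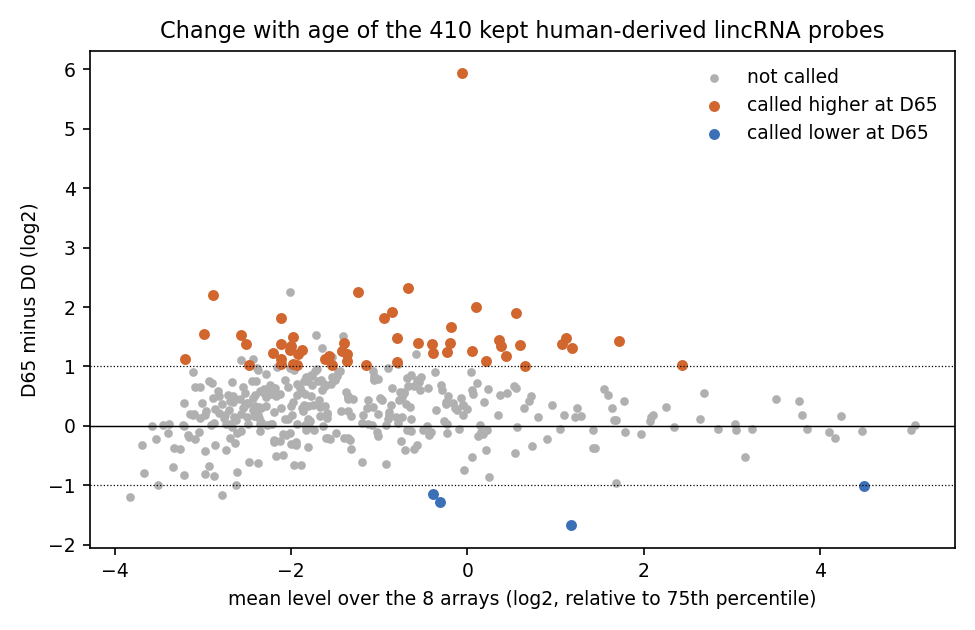
Difference between D65 and D0 (log2, vertical axis) against the mean level over the 8 arrays (log2, relative to the 75th percentile, horizontal axis) for the 410 kept humanlincRNA probes, with the probes called higher and lower marked. Most points lie above 0, 53 are called higher and 4 lower, and humanlincRNA2190- stands alone at 5.93.

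The number called higher depended on how the arrays were processed. With a background correction that compresses dim signals (normexp with an offset of 50) followed by the same scaling, 18 were higher and 3 lower, where 4.7% of all kept probes were called higher and 8.1% lower. With quantile normalization after the same correction, 15 were higher, all among the 53, and 1 lower, where the array gave 5.49% and 6.65%. Without any scaling between arrays 6 were higher and 43 lower, where the array gave 2.34% and 29.5%, and the median difference of the kept humanlincRNA probes was -0.45 beside -0.70 for all kept probes. The humanlincRNA median lay above that of all kept probes by 0.25 with and without scaling, and by 0.10 after normexp and quantile normalization. The scaling subtracts the same value from every probe of an array, so the equal gap with and without it follows from the arithmetic. Every difference given is relative to the other probes of an array. All 53 probes called higher kept a positive difference and all 4 called lower a negative difference in every setting that tested them. A sign could change only with normexp, quantile normalization, a left-out array or the deposited values. In the other settings the difference stayed as it was or shifted alike for all probes by less than the minimum, so the sign was fixed there.

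D0 replicate 4 differed most from its group. The median level of the kept humanlincRNA probes was -1.85, -1.91, -1.85 and -1.32 on D0 replicates 1 to 4 and between -1.26 and -1.22 on the D65 arrays. Replicate 4 was the highest D0 array for 296 of the 410 kept probes (72.2%) and for 40 of the 53 called higher. Without it 72 humanlincRNA probes were higher and 4 lower, where 11.6% of all probes then kept were higher and 15.5% lower. Without D0 replicate 1, 35 were higher (array 8.02%), and without D0 replicate 2, 34 (array 7.8%). Leaving out D0 replicate 3 gave 7 lower (array 12.1%). Without D65 replicates 1 to 4 in turn, 42, 45, 44 and 40 were higher, where the array gave 8.86%, 8.85%, 8.98% and 8.6%. The numbers lower were then 4, 3, 4 and 4, where the array gave 12.1%, 11.2%, 11.9% and 11.4%.

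The largest change of the set was at humanlincRNA2190-. Its levels were -2.94, -2.71, -3.22 and -3.25 on D0 replicates 1 to 4 and 3.27, 2.86, 2.28 and 3.20 on D65 replicates 1 to 4. The ages lay far apart, and the probe was well above background on 3 of the 4 D0 arrays and on all D65 arrays. The scanner signals behind these levels were 14.3 to 47.2 at D0 and 709 to 1389 at D65. The D0 levels were close to background: 3 of the 4 lay below the 95th percentile of the negative control spots of their array, which ran from -2.83 to -1.81 at D0. The difference was 5.93 (SE 0.26, limma adjusted p = 8.24e-07). It lay between 4.03 and 6.14 in the alternatives, lowest after normexp, so no exact fold is given. The next largest difference of any humanlincRNA probe called higher was 2.32.

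The other strand of the same region, humanlincRNA2190+, was higher at D65 too, by much less. Its levels were -2.90, -2.42, -1.87 and -1.52 at D0 and -1.13, -0.91, -1.01 and -1.14 at D65, without overlap between the ages. The difference was 1.13 (SE 0.29, limma adjusted p = 0.0162). It was under the minimum after normexp (0.75 with the percentile scaling, 0.51 with the quantile method), without D0 replicate 1 (0.89) and without scaling (0.36).

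A further 10 probes, chosen as those with the largest differences among the ones called higher, above background on all 8 arrays and without overlap between ages, differed by 1.45 to 2.32. humanlincRNA1779- had levels of -1.61, -2.20, -2.38 and -1.14 at D0 and -0.07, 0.42, 1.04 and 0.57 at D65. Every D65 array was above every D0 array, and the difference was 2.32 (SE 0.33, limma adjusted p = 0.000617), or 5.0-fold. It ranged from 1.47 to 2.55 over the alternatives, lowest after normexp and quantile normalization, so the fold holds for the main setting only. humanlincRNA2207+ stood at -2.96, -3.37, -2.22 and -0.91 at D0 and -0.27, -0.50, 0.10 and 0.21 at D65. Its D0 arrays were widely spread, with replicate 4 nearest to the D65 arrays. On D0 replicates 1 and 2 it lay below the 95th percentile of the negative control spots (-2.83 and -2.78). The difference was 2.25 (SE 0.47, limma adjusted p = 0.00554), and it ranged from 1.12 to 2.74 over the alternatives.

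humanlincRNA1211+ rose from -0.56, -0.82, -0.79 and -1.42 at D0 to 0.86, 1.49, 0.94 and 1.12 at D65. For this probe D0 replicate 4 was the lowest of its age. The difference was 2.00 (SE 0.25, limma adjusted p = 0.00027), or 4.00-fold in the main setting. It ranged from 1.23 without scaling to 2.12 over the alternatives, and was 1.39 and 1.42 after normexp. humanlincRNA2237+ rose from -0.16, -0.43, -0.56 and -0.45 to 1.83, 1.39, 1.67 and 1.11, a difference of 1.90 (SE 0.22, limma adjusted p = 0.000186). Its D0 arrays lay close together, well below all D65 arrays. humanlincRNA1587- rose by 1.92, with D0 arrays spread from -2.66 to -0.97 and D65 arrays between -0.10 and 0.26.

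Of the rest, humanlincRNA1812+ rose by 1.82, humanlincRNA2233- by 1.67, humanlincRNA0324- and humanlincRNA0296+ by 1.48 each and humanlincRNA1505+ by 1.45. humanlincRNA1505+ rested on a narrow gap, as D0 replicate 4 stood at 0.89, close to the lowest D65 array at 0.96, while the other D0 arrays were between -1.07 and -0.47. humanlincRNA0324- had a tight pattern, with 0.17 to 0.51 at D0 and 1.63 to 2.26 at D65. Over the settings that tested them and scaled the arrays, 13 humanlincRNA probes were called higher every time. These were humanlincRNA2190- and all of the 10 but humanlincRNA0296+, together with humanlincRNA1245+, humanlincRNA1364- and humanlincRNA1728-, which are named because they complete this count. Of these 13, 6 were also called without scaling: humanlincRNA2190-, humanlincRNA1211+, humanlincRNA1587-, humanlincRNA1779-, humanlincRNA2207+ and humanlincRNA2237+. The same counts over all kept probes are not given here, so these are not read as particular to the humanlincRNA probes.

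**Figure D3:**
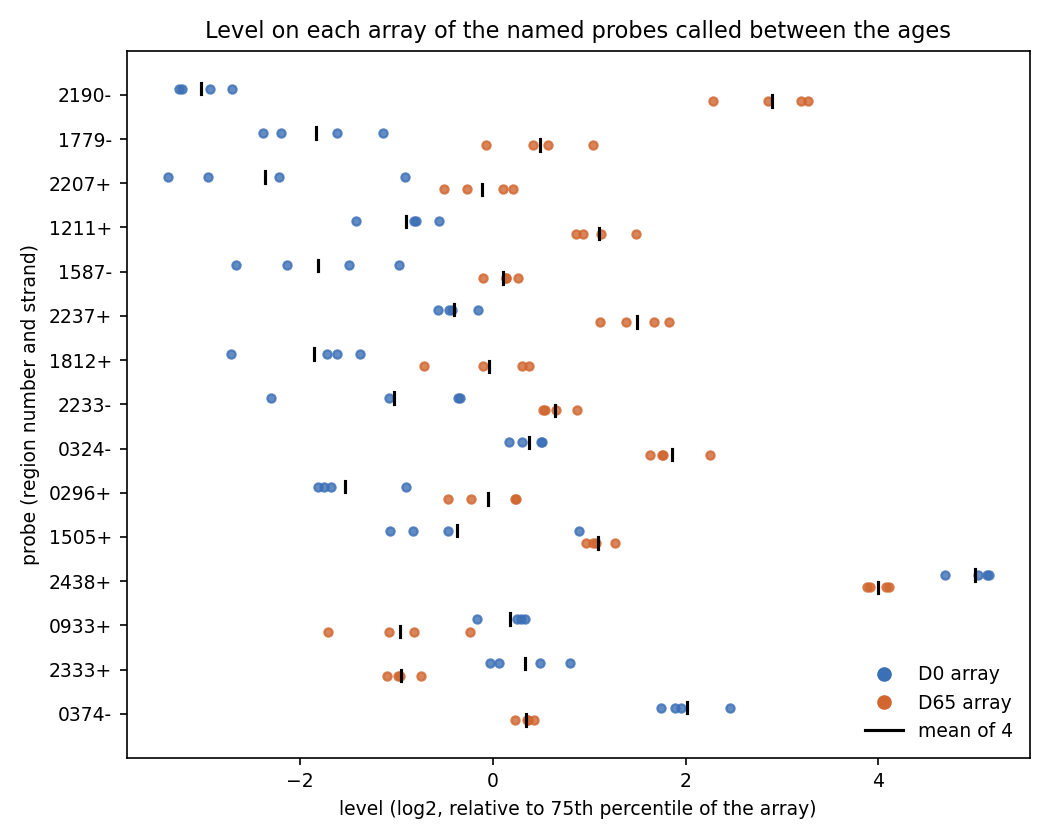
Level on each array (log2, relative to the 75th percentile of the array, horizontal axis) of humanlincRNA2190-, the 10 further probes higher at D65 and the 4 lower, with each point an array and a bar at the mean of 4. The D0 and D65 points of a probe do not overlap, and humanlincRNA2190- has the widest gap, with means of -3.03 at D0 and 2.90 at D65.

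The 4 probes called lower at D65 were humanlincRNA0374-, humanlincRNA2333+, humanlincRNA0933+ and humanlincRNA2438+. humanlincRNA0374- stood at 1.90, 1.75, 1.95 and 2.46 on the D0 arrays and at 0.36, 0.23, 0.36 and 0.43 on the D65 arrays. The ages were clearly apart, and the level fell by 1.67 (SE 0.21, limma adjusted p = 0.000313), or 3.18-fold in the main setting. The difference ranged from -2.44 without scaling to -1.38 after normexp and quantile normalization. Of the 4 probes, humanlincRNA0374- alone was called lower in every setting that tested it and scaled the arrays.

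humanlincRNA2333+ was 0.49, -0.03, 0.06 and 0.80 at D0 and -0.75, -0.96, -1.10 and -0.99 at D65. It fell by 1.28 (SE 0.24, limma adjusted p = 0.0028), but by less than the minimum after normexp (differences of -0.85 and -0.91). humanlincRNA0933+ fell by 1.14 (SE 0.31, limma adjusted p = 0.0186), with D65 arrays spread from -1.71 to -0.23. Its difference was -0.61 and -0.70 after normexp and -0.89 without D65 replicate 2, all under the minimum. humanlincRNA2438+, one of the brightest probes, was 4.69, 5.04, 5.13 and 5.15 at D0 and 4.11, 3.89, 3.91 and 4.08 at D65. The ages did not overlap and the level fell by 1.01 (SE 0.20, limma adjusted p = 0.0038), just past the minimum, which it missed in 9 alternatives with differences from -0.99 to -0.83.

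At D0, 6 humanlincRNA probes passed as well above background on every array and on no D65 array, and none showed the reverse. Over all probes of the array the flag was also set less often at D65 (52.3% to 60.7% against 63.1% to 68.4%). The same count over all probes is not given here, so this one is not read as particular to the humanlincRNA probes. For such probes the D65 level is only a bound, taken per array as the lowest signal well above background or the probe's own, whichever was higher. On this basis the mean of humanlincRNA1963- was at least 1.86-fold higher at D0, that of humanlincRNA1468+ at least 1.03-fold and that of humanlincRNA1347- at least 1.02-fold. These bounds concern means, leave out the spread among arrays and belong to probes picked by the flag itself. For humanlincRNA1347-, D0 replicate 4 stood at -1.53 and the other D0 arrays between -3.76 and -3.29. The bound was under 1 for the other 3 of the 6 probes, for which no fold is given. The measured means of humanlincRNA1963- were -2.12 ± 0.76 (SD, n = 4) at D0 and -3.12 ± 0.30 (SD, n = 4) at D65, with a limma adjusted p of 0.0614. None of the 6 passed the test. Among the alternatives humanlincRNA1963- passed without D0 replicate 3 (difference -1.25, limma adjusted p = 0.0266). Without scaling it passed together with humanlincRNA1468+, humanlincRNA1347- and humanlincRNA1697+ (differences from -1.76 to -1.45). After normexp with the 75th percentile the differences of these probes were 0.02, 0.33, 0.27 and 0.30, in the same order. With normexp and quantile normalization they were -0.31, -0.07, -0.21 and -0.16.

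The calls lay at all levels of brightness. Of the kept humanlincRNA probes, 148 had a mean level below -2. Of these 13 were called higher and none lower, where 6.80% of all kept probes at that level were higher and 14.2% lower. The 95th percentile of the negative control spots ran from -2.83 to -1.81 at D0 and from -1.98 to -1.61 at D65. A level below -2 is thus within the range of spots without a target on every D65 array. Between -2 and 0 there were 179 probes, with 26 higher and 2 lower, beside 9.10% and 9.61% of all kept probes. Above 0 there were 83, with 14 higher and 2 lower, beside 11.5% and 14.1%. After normexp and quantile normalization the numbers called higher in these ranges were 0, 6 and 9, where the array gave 0.529%, 2.31% and 10.9%.

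Other noncoding classes of the array gave these values beside the humanlincRNA probes. Of 241 kept mouse lincRNA probes 27 were called higher and 0 lower, with a median difference of 0.40. Of 1774 kept lincRNA exon probes 193 were higher and 159 lower, with a median of 0.21. Of 311 kept ultraconserved probes 21 were higher and 27 lower, with a median of 0.14. The classes were not tested against each other, and they differ in brightness, with a median level over the 8 arrays of -1.58 for humanlincRNA, -1.39 for mouse lincRNA, -1.05 for lincRNA exon and -1.52 for ultraconserved probes.

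By strand, 202 plus-strand and 208 minus-strand humanlincRNA probes were kept. On the plus strand 34 were called higher and 3 lower, with a median difference of 0.35, and on the minus strand 19 and 1, with a median of 0.30. Over all kept probes of the array 9.57% were called higher and 12.6% lower, a share not given here by strand. Whether the calls differ in number between the strands was not tested. Most regions were measured on 1 strand or on none. Both strands were kept for 83 regions, only the plus strand for 119, only the minus strand for 125 and neither for 281. In 136 regions neither strand was well above background on any array.

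Of the 83 regions with both strands kept, 2 had both strands called, 25 had 1 and 56 had none. These counts are not given here for the other regions of the array. Both strands were called higher in humanlincRNA2190 and in humanlincRNA1728, where the plus strand rose by 1.22 and the minus strand by 1.31. In 58 of the 83 regions the strands differed between ages in the same direction, 51 of them upward. A positive difference was found for 73.7% of the kept humanlincRNA probes, so strands can agree in direction without being linked. The differences of the strands correlated weakly over the 83 regions (Spearman 0.20, Pearson 0.18, or 0.15 without humanlincRNA2190). The difference between strands was tested directly, on the log2 signal of the plus minus that of the minus strand within each array, which needs no scaling between arrays. In this test 12 of 83 regions (14.5%) were called (limma, adjusted over the 653 regions of the array with both strands kept), where 23.4% of all such regions were called. The share was below that of the array, and 6 of the 12 had the greater difference on each strand.

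The region with the smallest p was humanlincRNA2190, where the minus strand moved further upward than the plus strand (plus-strand minus minus-strand difference -4.80, SE 0.44, limma adjusted p = 7.49e-05). In humanlincRNA1211 the plus strand rose while the minus strand lay between -2.21 and -1.85 on the D0 arrays and between -2.21 and -2.04 on the D65 arrays, and the strands differed by 2.15 (limma adjusted p = 0.00131). In humanlincRNA2333 the plus strand fell, while the minus strand had a difference of 0.54 that did not pass the test, and the strands differed by -1.82 (limma adjusted p = 0.00222).

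The fourth region was humanlincRNA2354. Its plus strand rose by 1.27, from -2.29, -2.18, -2.08 and -1.67 to -0.69, -1.34, -0.73 and -0.39. Its minus strand stood at 0.38, 0.40, 0.26 and 0.61 at D0 and at 0.09, 0.22, -0.05 and -0.23 at D65, a difference of -0.41 that did not pass the test although the ages did not overlap. The strands differed by 1.67 (limma adjusted p = 0.00499). The plus-strand call of humanlincRNA2354 was lost after normexp, at differences of 0.85 and 0.64, and without scaling, at 0.50. Without scaling its minus strand was called lower instead, at -1.17, while the difference between the strands does not depend on scaling.

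Among the other regions called in the strand test were those of 4 probes already described. The opposite strands of humanlincRNA2207+, humanlincRNA1812+, humanlincRNA2438+ and humanlincRNA1468+ had differences of 0.27, 0.19, 0.16 and 0.42. Of the 25 regions with 1 strand called, 8 were called in the strand test, so for the remainder a call on 1 strand is not shown to be a difference between strands. Without D0 replicate 4, 22 of 91 regions were called, where 27.8% of the array's regions were, and without the filter on dim probes 19 of 608, where the array gave 7.89%.

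**Figure D4:**
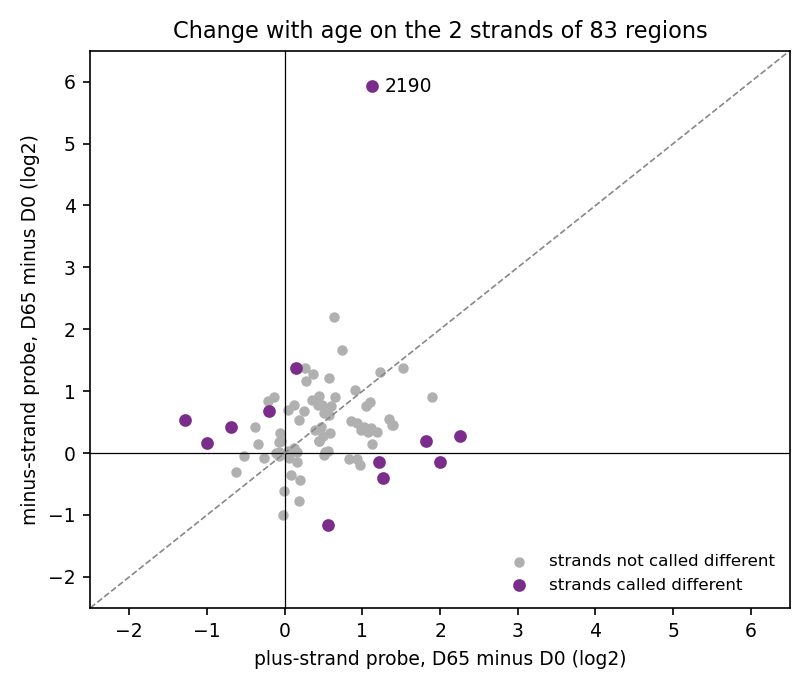
Difference between D65 and D0 (log2) of the plus-strand probe (horizontal axis) and of the minus-strand probe (vertical axis) for the 83 regions with both strands kept, with the dashed line where both are equal. The 12 regions called in the strand test are marked, and humanlincRNA2190 lies farthest from the line, at 1.13 on the plus and 5.93 on the minus strand.

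The 565 humanlincRNA probes above background on no array had median levels like those of spots without a target. Their median levels on D0 replicates 1 to 4 were -6.05, -6.31, -6.27 and -5.39, where the negative control spots had -6.03, -6.31, -6.27 and -5.37. On the D65 arrays they were -4.90, -5.16, -5.40 and -5.45, beside -4.88, -5.16, -5.40 and -5.41. The medians of the dim probes and of the negative controls thus lay almost together on every array. Relative to the 75th percentile both were higher at D65 on average. Some dim humanlincRNA probes had exactly the same level on D65 replicate 2, which was also the value of both medians. On D0 replicates 2 and 3 both medians were equal too, at -6.31 and -6.27, and humanlincRNA0016+ stood at these values. Part of the likeness can thus come from a value that dim spots share. The 565 probes were also chosen for never passing the flag. From 20.4% to 41.2% of the 565 had a positive and significant signal on an array. Tested without the filter, these 565 had a median difference of 0.76, with 29 called higher and 1 lower, where 6.46% of all probes were called higher and 7.64% lower without the filter. Without scaling their median difference was -0.01. A level of these probes is only a bound at either age.

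**Figure D5:**
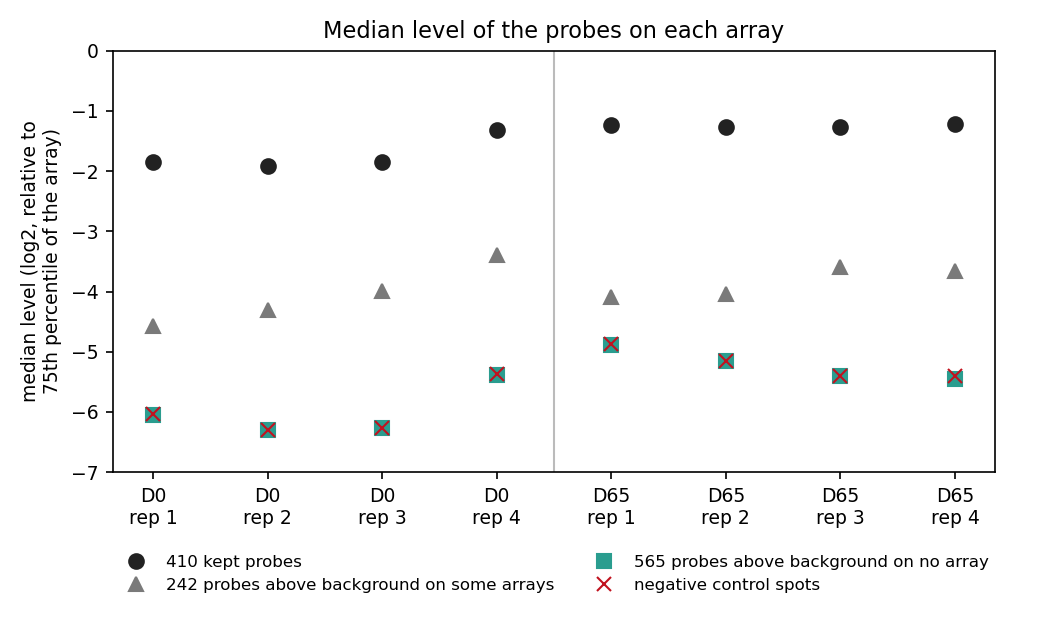
Median level (log2, relative to the 75th percentile, vertical axis) on each array of the kept humanlincRNA probes, of those above background on some arrays, of those above background on no array and of the negative control spots. The probes above background on no array coincide with the negative control spots on all 8 arrays, and both are highest on D65 replicate 1, at -4.90 and -4.88.

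Between these and the kept probes were the 242 above background on some arrays. Their median levels ran from -4.57 to -3.40 on the D0 arrays and from -4.09 to -3.59 on the D65 arrays, with a median difference of 0.32 without the filter and 8 called higher and 1 lower, beside the same 6.46% and 7.64% of the array. Of the 807 probes not kept, 121 carried the flag on D0 arrays only and 28 on D65 arrays only. The flag was set less often at D65 over all probes too, for which these counts are not given here. The probes closest to being kept passed on 3 arrays of each age. humanlincRNA1680- was -4.03, -4.00, -3.64 and -2.66 at D0 and -2.93, -2.25, -2.42 and -2.90 at D65, with a difference of 0.96 that missed the threshold (limma adjusted p = 0.0771 without the filter). humanlincRNA1808+ and humanlincRNA1939- had differences of 0.70 and -0.84, and the latter ranged from -3.95 to 0.28 among the D0 arrays alone. Over all 1217 humanlincRNA probes, tested without the filter, 78 were called higher, where 6.46% of all probes on the array were, and 6 lower.

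The authors' deposited table of normalized intensities holds 14529 probes, among them exactly the 322 humanlincRNA probes above background on all 8 arrays. Tested on those values, 43 humanlincRNA probes were higher and 3 lower, where 11.2% of the table's probes were higher and 7.57% lower.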

How the data were processed

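Total RNA of mouse muscle was treated with DNase I, depleted of ribosomal RNA, and, per the labels' protocols, turned into Cy3-labelled cRNA by random priming for 1-colour Agilent hybridisation. Scanning data came from Feature Extraction 11.0.1.1 on a grid built on mm9, per the file headers. The deposited scanner files give spot intensity after background subtraction with a yes-or-no mark of whether a spot is well above background. The authors also deposited normalized intensities of 14529 probes on a linear scale. Each column followed the log2 scanner signal of its array (Pearson r from 0.9994 to 1.000 over probes), the column medians were 153 to 181, and the normalization behind them is not given in the sources used here.

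Log2 intensity from the deposited files, minus each array's 75th percentile, was compared between ages with limma 3.58.1 in R 4.3.3. Control spots, 20 negative control probes and outlier spots (1 to 2 humanlincRNA spots on 4 arrays) were left out, and a probe with an outlier spot was fitted without that array. An outlier spot counted as not above background. The self-test on simulated data used the kept probes with a value on every array. It recovered 72 of 100 probes changed by 2 and 90 of 100 changed by 3 on the log2 scale, with 4 false calls. Its noise was independent between probes and arrays, without a shift of any array, so it gives no error rate for these data. Tables were made with pandas 2.3.3. The named probes follow a rule on size of change, bounds, brightness, narrow intervals, strand and near-detection. Members, lists and rules were chosen with earlier results of these data known. The main comparison did not pair the arrays by replicate number. Alternatives varied the scaling, background correction, filter, threshold, detection flag, trend, block and arrays, and the unscaled values were added after seeing the data.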

Additional observations from a re-analysis of the deposited data

Results flagged for a closer look

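Of 74 groups of 4 arrays that were checked for an array far from the other 3 (Dixon's criterion at the 95% level, which chance passes in about 1 of 20 groups), 2 had one, and both were D0 replicate 4. The median level of the kept humanlincRNA probes was -1.319 there and between -1.91 and -1.85 on the other D0 arrays. The level of humanlincRNA0296+ was -0.8975 there and between -1.82 and -1.68 on the other D0 arrays. D0 replicate 4 also had the lowest 75th percentile signal of its age (136) and a negative control median level of -5.37, beside -6.31 to -6.03 on the other D0 arrays. Over the kept humanlincRNA probes its Spearman correlation with the other D0 arrays was 0.849 to 0.913, where those 3 arrays had 0.882 to 0.915 among themselves, as a description of arrays that share a slide and a scan. What sets this array apart was not tested.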

How the results depend on the processing

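In place of 53 humanlincRNA probes called higher and 4 lower, 18 and 3 were called after normexp with the 75th percentile, 15 and 1 after normexp with quantile normalization, and 6 and 43 without scaling, where the median difference of 0.32 turned to -0.45. The adjusted p alone gave 81 higher. Without the filter the median was 0.55 and 19 strand regions were called in place of 12. Leaving out 1 array at a time gave 34 to 72 higher, 3 to 7 lower, a median of 0.24 to 0.41, 399 to 416 probes on all D0 arrays, 343 to 368 on all D65 arrays and 8 to 22 strand regions. With a looser flag, signal positive and significant, 647 and 562 probes passed on all D0 and all D65 arrays in place of 391 and 341. The causes of these shifts were not tested. The median over all kept probes, 0.06, was 0.18 with the percentile over probes detected on all arrays, 0.19 with normexp and the 75th percentile and -0.70 without scaling. Of 583 alternative values of named probes and regions, 27 lost the call, 6 gained it and none changed sign past the threshold. The replicate number equals the slide column, so same-numbered arrays of both ages share a column. Deviations of same-numbered arrays correlated at -0.12, 0.24, 0.28 and -0.13. These values of mixed sign do not settle whether the numbers pair the arrays. With the replicate number as a block 51 probes were higher and 4 lower, counts not given here over all kept probes. In that setting 13 of 83 strand regions were called, where 167 of 653 were over the array. The number of arrays limits precision, and so does dim signal: 807 of 1217 probes did not pass the filter for the main comparison.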
